A study of Homo sapiens with 24 samples.

Results

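The difference between Y537S and WT estrogen receptor (ER) cells in their response to a miR-331-3p mimic was examined in T-47D cells, an established ER-positive luminal breast cancer cell line. The measure for each gene was the log2 fold change of the miR-331-3p mimic over the mimic negative control in Y537S cells minus the same log2 fold change in WT cells, called the response difference here. It drew on 8 of the 24 libraries of the series, in 4 groups of 2: WT cells with the control mimic, WT cells with the miR-331-3p mimic, Y537S cells with the control mimic and Y537S cells with the miR-331-3p mimic. Y537S is a change in the ligand-binding domain of the receptor, carried heterozygously at the endogenous ESR1 gene. All 4 groups were kept in hormone-deprived medium, transfected at 10 nM and harvested after 24 h. Each group held 1 library from each of 2 clones of its genotype (D1 and D4 for WT, 1 and 2 for Y537S), so a difference between genotypes is also a difference between a pair of clones and another pair. Of 26364 genes in the tables, 15666 had enough counts to be tested.

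A miRNA guides a silencing complex to mRNAs, mainly through bases 2 to 8 of its sequence, the seed, which pairs with sites in 3′UTRs, and the paired mRNAs are translated less and degraded sooner. A mimic is a synthetic duplex that adds the activity of a miRNA to the cell. The Y537S substitution keeps ER in an active shape without hormone, so mutant cells transcribe ER target genes and divide in medium in which WT cells slow down.

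The mature miRNA (RefSeq) is shown with its seed in capitals, followed by 1 site for each reported target that was tested, with the 7 bases complementary to the seed in capitals, since these are the sequences through which a direct response would run.

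hsa-miR-331-3p: gCCCCUGGgccuauccuagaa

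ERBB2: ccctccgaccacttCCAGGGGaa

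DOHH: gatcgcgaggggagCCAGGGGag

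ING5: agaggaattttaagCCAGGGGaa

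E2F1: ggggtgggccctctCCAGGGGgc

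PHLPP1: aggctcacattaaaCCAGGGGtt

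The sites lie in 3′UTR exons at chr17:37884385-37884407 (plus strand), chr19:3491059-3491081 (minus), chr2:242668579-242668601 (plus), chr20:32263736-32263758 (minus) and chr18:60646725-60646747 (plus) of GRCh37. ERBB2 is the HER2 receptor tyrosine kinase, DOHH makes hypusine on the translation factor eIF5A, ING5 is a chromatin reader, E2F1 drives S phase entry and PHLPP1 is a phosphatase that acts on AKT. By edgeR 0 of the 5 passed the test of the response difference, which ran from −0.83 to 0.24 among them. At an unadjusted p under 0.05, with DESeq2 and with the clone as a block, 1 passed. Of all 15666 genes tested, 1557 (9.94%) passed by edgeR, 4320 at the unadjusted p, 2401 with DESeq2 and 5345 (34.1%) with the block. ERBB2 had 676 and 648 CPM (TMM-normalized counts scaled to a common library size) in WT control, 604 and 604 in WT miR-331, 309 and 319 in Y537S control and 255 and 317 in Y537S miR-331 libraries, each pair in the order of the clones. Its log2 fold changes were −0.13 in both genotypes. ING5 had the smallest p of the list, with 14.6 and 15 CPM in WT control, 15.7 and 12.2 in WT miR-331, 20.4 and 17.5 in Y537S control and 10.9 and 9.22 in Y537S miR-331 libraries. The Y537S miR-331 values of ING5 lay under those of the other 3 groups, and its response difference was −0.83 (SE 0.23, Benjamini-Hochberg adjusted p = 0.055 by edgeR's quasi-likelihood test), or an adjusted p of 0.00042 with the clone as a block.

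Both Y537S miR-331 libraries stood apart from the other 22 libraries of the series. Every response difference rests on them, those of the reported targets above included. MALAT1 and NEAT1 are long noncoding RNAs that stay in the nucleus. MALAT1 (chr11:65265111-65275544, plus strand) was at 880.02 and 1101 CPM in these 2 libraries and at 4312 to 18471 CPM in the other 22, all normalized together. NEAT1 (chr11:65190245-65213011, plus strand), named after its values were seen, was at 76.5 and 138 CPM against 656 to 2616 CPM. Neither range overlapped.

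Small nucleolar RNAs (snoRNAs) mostly lie in introns of other genes and are not polyadenylated. The 103 snoRNA genes tested summed to 18.8 and 20.5 CPM in the Y537S miR-331 libraries against 52.0 to 91.0 CPM in the others, and the 40 miRNA genes tested to 15.2 and 16.1 CPM against 31.8 to 47.1 CPM. In the other direction, the 80 ribosomal protein genes tested summed to 43608 and 51512 CPM against 24420 to 33452 CPM. The others include the WT libraries with the miR-331-3p mimic and the Y537S libraries with the miR-301b-3p mimic. The TMM factors were 0.900 and 0.938 in the Y537S miR-331 libraries and 0.994 to 1.03 in the other 22. These 2 libraries are the whole Y537S miR-331 group, so what sets them apart and the response to the mimic in Y537S cells cannot be told apart, and no response difference can be computed with both left out.

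**Figure D1:**
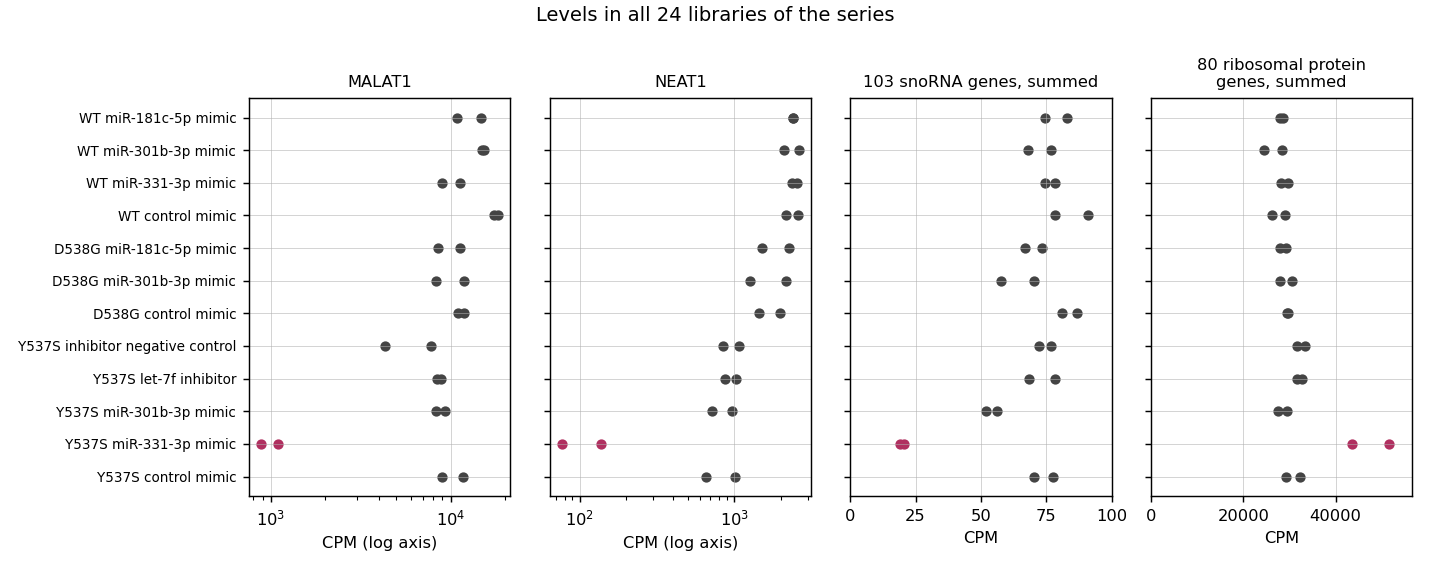
Levels of MALAT1, NEAT1, the 103 tested snoRNA genes (summed) and the 80 tested ribosomal protein genes (summed) in CPM, with 1 point per library and 1 row per condition of the series; the MALAT1 and NEAT1 axes are logarithmic and the other 2 start at 0. The 2 Y537S miR-331 libraries, in red, lie below all 22 others in the first 3 panels and above all of them in the last.

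The cells themselves matched their label. The 12 luminal markers of T-47D summed to 12151 to 16990 CPM in the 8 libraries, with KRT8 at 2243 to 5032 CPM. The lists of other cell types summed to 29.7 to 55.1 CPM (basal), 53.3 to 73.3 CPM (fibroblast, almost all of it COL1A1 at 51.2 to 70.7 CPM), 4.96 to 6.86 CPM (immune) and 0.549 to 1.35 CPM (endothelial). Libraries held 33451179 to 45046905 counts.

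Of the 15666 genes tested, 1557 (9.94%) responded differently in the 2 genotypes, 543 (3.47%) higher in Y537S cells and 1014 (6.47%) lower. The lower side ran further. Its 1014 genes had a median response difference of −1.26, and 625 of them lay below −1, while the 543 higher genes had a median of 0.52, with 1 of them (TAP2, described with the WT responses) above 1. Over all genes tested the median was −0.03. With the clone as a block, 5345 genes (34.1%) were called, 2617 higher (16.7%) and 2728 lower (17.4%), and all 1557 genes of the unblocked fit were called there in the same direction. Leaving out 1 library at a time gave 283 to 2378 calls, 7 to 942 higher and 276 to 1436 lower.

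Most of these genes moved in Y537S cells. Of the 1014 lower genes, 898 (88.6%) passed the test as down-regulated in Y537S cells and did not pass in WT cells, 44 fell in both genotypes and 38 fell in Y537S cells while rising in WT cells. Of the 543 higher genes, 443 (81.6%) rose in Y537S cells without passing in WT cells and 93 rose in both. Another 31 genes passed in WT cells and not in Y537S cells, and 10 passed in neither. In the same fit 6822 genes differed between miR-331 and control libraries in Y537S cells (43.5%; 3285 up, 3537 down) and 1182 in WT cells (7.55%; 839 up, 343 down). With the clone as a block these counts were 9307 and 5131, so which genes did not pass in WT cells depends on the fit. Across the 15666 genes the 2 responses had a Pearson r of 0.288 and a Spearman rho of 0.497, with a standard deviation over genes of 1.01 in Y537S and 0.515 in WT cells. No library is shared between them, genes are not independent replicates, and no p is given.

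**Figure D2:**
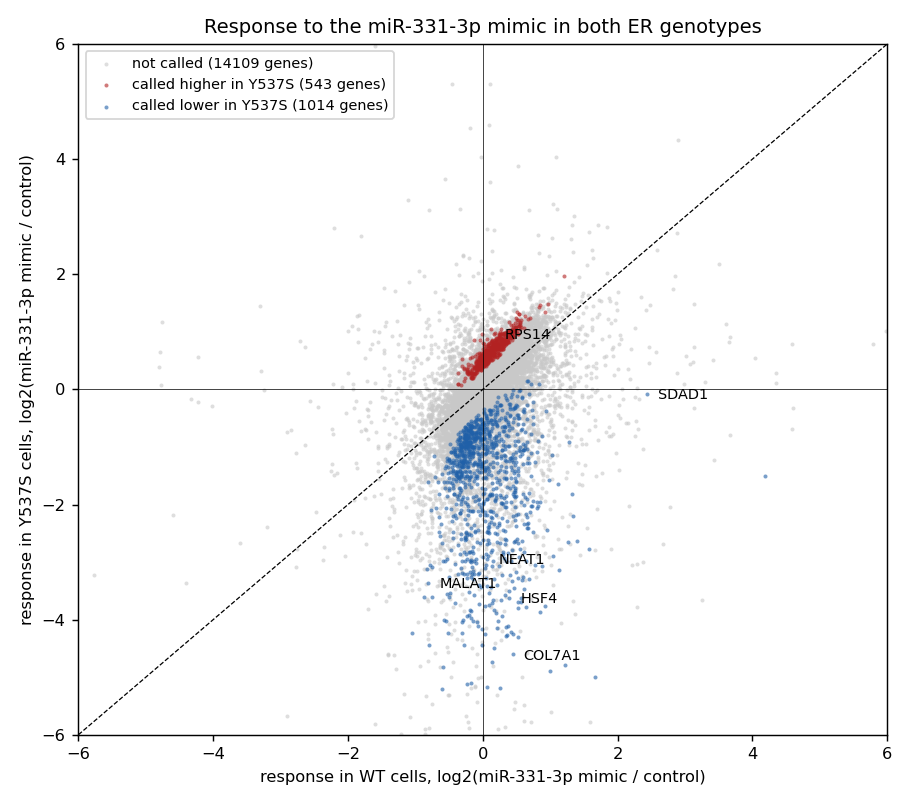
Log2 fold change after the miR-331-3p mimic in Y537S cells (vertical) against that in WT cells (horizontal), 1 point per gene tested, with the line of equal response dashed; 60 genes lie outside the axes, which end at 6. Genes called lower (blue) spread far below the line, some of them past COL7A1, while genes called higher (red) within the axes lie close above it.

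The called genes were set against the 16 libraries outside the fit as well as those inside it. Of the 1014 lower genes, 858 (84.6%) were lower in both Y537S miR-331 libraries than in any of the other 22. Of the 543 higher genes, 446 (82.1%) were above all 22. Over all 15666 genes tested, called or not, 2242 (14.3%) were below and 1876 (12.0%) above all 22. The calls used these 2 libraries and 6 of the 22, so the shares are a description.

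The 12 leading lower genes, those with the largest response differences at a mean of at least 2 log2 CPM, ran from −5.05 to −3.64. They were COL7A1 (type VII collagen of the anchoring fibrils), GOLGA8B (a golgin), GPT (cytosolic alanine aminotransferase), SEC31B (a COPII coat protein), SLC16A8 (a monocarboxylate transporter), HSF4 (a heat shock transcription factor), MAMDC4, SCART1, PABPC1L (a cytoplasmic poly(A)-binding protein), PAQR6 (a membrane progestin receptor) and the pseudogenes HERC2P3 and HERC2P2. They belong to no common pathway. GOLGA8B, HERC2P2, HERC2P3 and PABPC1L have near-identical or close copies, so their reads may be shared with other loci.

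COL7A1 (chr3:48601506-48632762, minus strand) had 29.8 and 26.6 CPM in WT control, 38.1 and 38.6 in WT miR-331, 17 and 20.3 in Y537S control and 0.59 and 0.934 CPM in Y537S miR-331 libraries. The Y537S miR-331 values were far under the 3 other groups, which did not overlap one another either. The log2 fold change was −4.60 in Y537S and 0.44 in WT cells, a response difference of −5.05 (SE 0.26, Benjamini-Hochberg adjusted p = 5.5e-05 by edgeR's quasi-likelihood test). HSF4 (chr16:67198584-67203848, plus strand) had 75.9 and 74.2, then 99.7 and 97.8, then 36.5 and 51.3, then 2.98 and 4.14 CPM in the same order of groups. Its log2 fold change was −3.62 in Y537S cells and 0.40 in WT cells, where it did not pass (adjusted p = 0.18 by the same edgeR test). The response difference of HSF4 was −4.02 (SE 0.26, adjusted p = 0.00017 by that test).

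PABPC1L (chr20:43538701-43587676, plus strand) had 92.6 and 86.6 CPM in WT control, 105 and 94.3 in WT miR-331, 46.5 and 57.3 in Y537S control and 4.08 and 4.1 in Y537S miR-331 libraries, and a response difference of −3.82 (SE 0.17, Benjamini-Hochberg adjusted p = 3.5e-05 by edgeR's quasi-likelihood test). GPT fell from 3.91 and 5.88 CPM in Y537S control to 0.32 and 0.383 in Y537S miR-331 libraries, and had 9.7 and 8.78 against 15.4 and 13.3 CPM in WT cells. All 12 genes had Y537S miR-331 levels below each of the other 22 libraries. All 12 remained called lower in each fit that left out 1 library.

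**Figure D3:**
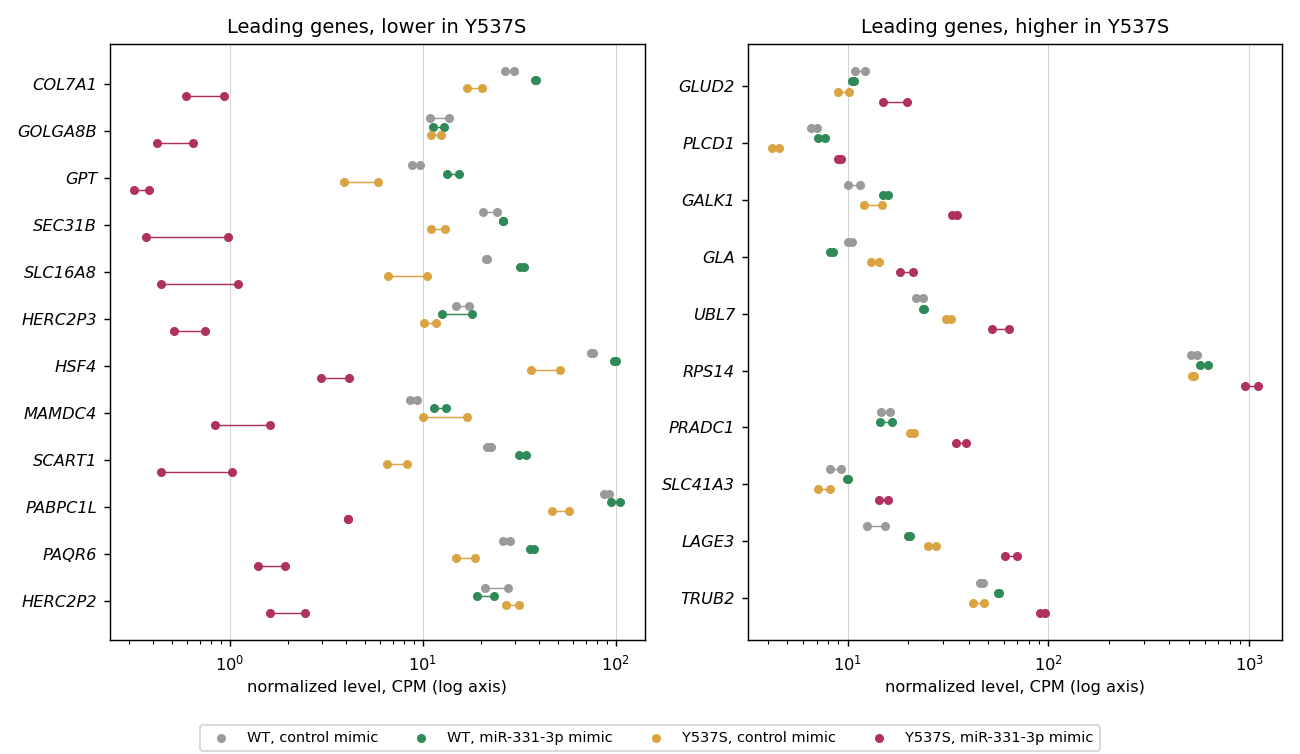
Normalized level in CPM (log axes) of the 12 leading lower genes and 10 of the leading higher genes, with 1 point for each of the 8 libraries and a line joining the 2 clones of a group. In the left panel the Y537S miR-331 points lie below the other 6 at every gene, and in the right panel they lie above them by a smaller distance.

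The 12 leading higher genes had much smaller response differences, which ran from 0.78 to 0.99 over the 10 described here. These were GLUD2 (glutamate dehydrogenase, a copy of GLUD1, so reads may be shared), PLCD1 (a phospholipase C), GALK1 (galactokinase), GLA (lysosomal alpha-galactosidase), UBL7, RPS14 (a protein of the small ribosomal subunit), PRADC1, SLC41A3 (a member of a magnesium transporter family), LAGE3 (a subunit of the KEOPS tRNA modification complex) and TRUB2 (a mitochondrial pseudouridine synthase).

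RPS14 (chr5:149822198-149829302, minus strand) had 515 and 546 CPM in WT control, 567 and 619 in WT miR-331, 533 and 517 in Y537S control and 1107 and 948 CPM in Y537S miR-331 libraries. Only the Y537S miR-331 values stood away from the rest. Its response difference was 0.81 (SE 0.13, Benjamini-Hochberg adjusted p = 0.0081 by edgeR's quasi-likelihood test). LAGE3 (chrX:153706114-153707620, minus strand) rose in both genotypes, from 12.5 and 15.4 to 20.5 and 19.9 CPM in WT cells and from 27.5 and 25 to 69.8 and 60.4 CPM in Y537S cells, a response difference of 0.78 (SE 0.18, adjusted p = 0.032 by the same edgeR test). GLA rose from 14.3 and 13.1 to 21.1 and 18.3 CPM in Y537S cells. In WT cells it had 10.5 and 10.1 against 8.2 and 8.47 CPM, which did not pass (adjusted p = 0.20 by the same edgeR test). The call of these 12 genes depended on which library was left out: over 96 values (12 genes, each without 1 of 8 libraries) it was kept in 27, of which 11 were without Y537S miR-331 clone 2 and 0 without WT control D4 or WT miR-331 D1.

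ESR1, which encodes the receptor itself (chr6:151977826-152450754, plus strand), had 114 and 112 CPM in WT control, 86.4 and 90.6 in WT miR-331, 252 and 166 in Y537S control and 201 and 129 CPM in Y537S miR-331 libraries. The 2 Y537S groups overlapped, and the clones of that genotype differed more than the treatments. The log2 fold changes were −0.34 in Y537S and −0.35 in WT cells, with a response difference of 0.01 (SE 0.31, Benjamini-Hochberg adjusted p = 0.99 by edgeR's quasi-likelihood test).

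Called genes that were not protein-coding were mostly lower. Of the 543 higher genes, 2 were of an annotated type other than protein-coding, and 4 had no match in the annotation. The lower genes held 804 protein-coding genes, 145 of other types and 65 without a match. Of 807 long noncoding RNA genes tested, 67 were called lower (8.30%, near the 6.47% of all genes) and 0 higher by edgeR, with a median response difference of −0.41. At an unadjusted p under 0.05 there were 169 lower and 10 higher, with DESeq2 79 and 1 and with the block 160 and 11, where 17.4% of all genes were lower and 16.7% higher. Of all 15666 genes, 2405 were lower and 1915 higher at the unadjusted p, and 1213 and 1188 with DESeq2. The 103 snoRNA genes had 12 lower and 0 higher calls by edgeR and a median of −1.99, and 100 of them had a negative value. The 40 genes annotated as miRNA had 6 lower and 0 higher, with a median of −1.90. Their counts were low, with a sum over all 40 of 15.2 to 47.1 CPM across the 24 libraries. The libraries were poly-A selected, and mature miRNA levels were not measured in them. MIR3654, named after its values were seen, had no match in the annotation and was called higher (0.91). In these 2 annotated classes 0 genes were higher at an unadjusted p under 0.05, with DESeq2 or with the block as well. Pseudogenes had 57 lower and 2 higher of 370, with a median of −0.47, and their reads may come from the parent genes. The 13704 protein-coding genes had a median of 0.01. In WT cells the median log2 fold change was 0.02 over long noncoding and −0.08 over snoRNA genes.

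The list of long noncoding RNAs and small RNA host genes had 27 of 232 tested members lower (49 with the block, and 10 to 30 without 1 library), at a median of −0.41 against −0.03 over all genes. The lower calls were 11.6% of this list, against 6.47% of all genes. With the block 17.4% of all genes were lower. LINC01004 went from 15.2 and 14.5 CPM in Y537S control to 0.836 and 0.743 CPM in Y537S miR-331 libraries, and from 49.4 and 35.1 to 31.7 and 27.3 CPM in WT cells, a response difference of −3.71. LINC01000 had −2.37. MALAT1 was at 17864 and 16894 CPM in WT control, 8820.2 and 11059 in WT miR-331, 8796 and 11534 in Y537S control and 877 and 1098 CPM in Y537S miR-331 libraries. It was lower in the miR-331 libraries of both genotypes, with log2 fold changes of −0.81 in WT and −3.36 in Y537S cells and a response difference of −2.56 (SE 0.23, Benjamini-Hochberg adjusted p = 0.00059 by edgeR's quasi-likelihood test). SNHG1, a snoRNA host gene named after its values were seen, fell from 65.6 and 60.2 to 14.4 and 18.3 CPM in Y537S cells beside 40.5 and 39.6 against 36.4 and 37.6 CPM in WT cells. GAS5, another such host gene chosen in the same way, had a response difference of −0.34 (adjusted p = 0.22 by the same edgeR test), so host genes did not all pass.

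Splicing factors remove introns and join exons in the nucleus. Of 52 tested, 11 were called lower (21.2%, against 6.47% of all genes) and 2 higher, at a median of −0.16. With the block 22 were lower and 9 higher, where 17.4% and 16.7% of all genes were called. Without 1 library 5 to 14 were lower, with 5 without WT miR-331 D1 and 6 without WT control D4. SRRM2, a scaffold of nuclear speckles, had 1648 and 1669 CPM in WT control, 1655 and 1645 in WT miR-331, 1579 and 1479 in Y537S control and 759 and 799 CPM in Y537S miR-331 libraries. The first 3 groups were close together and the last was far below them, a response difference of −0.97 (SE 0.09, Benjamini-Hochberg adjusted p = 0.00079 by edgeR's quasi-likelihood test). PNISR had −1.43 and CLK2, a kinase of SR proteins, −1.31. Among members named after their values were seen, CLK1 had −1.34, CLK4 −1.12 and LUC7L3 −1.37, while the 2 higher members were HNRNPL (0.41) and SF3A1 (0.47).

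Genes of protein synthesis stood on the other side. Of 80 cytoplasmic ribosomal protein genes, 32 (40%) were called higher in Y537S cells against 3.47% of all genes, and 1 was called lower, at a median of 0.54. The higher count was 72 with the block, where 16.7% of all genes were higher. After the GC correction it was 14, where 345 of all 15666 genes were higher. Without 1 library it ran from 0 to 61: it was 0 without WT control D4 or WT miR-331 D1, 1 without WT miR-331 D4, 7 to 17 without WT control D1, either Y537S control library or Y537S miR-331 clone 1, and 61 without Y537S miR-331 clone 2. RPL24 had 312 and 330 CPM in WT control, 308 and 306 in WT miR-331, 362 and 356 in Y537S control and 535 and 486 CPM in Y537S miR-331 libraries, a response difference of 0.57, and RPL23A had 0.56. The lower member was RPL36A at −1.86, named after its values were seen, whose level was 3.91 and 3.88 CPM in Y537S control and 1.01 and 1.05 CPM in Y537S miR-331 libraries. Ribosomal protein genes have many processed pseudogenes with which reads could be shared. Of 76 mitochondrial ribosomal protein genes, 12 were higher (41 with the block, and 0 without WT control D4 or either WT miR-331 library), at a median of 0.32, and MRPL11 had 0.61.

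Energy metabolism followed the same side. Of 81 respiratory chain genes, 22 were higher (27.2%, against 3.47% of all genes) and 2 lower, at a median of 0.41. With the block 62 were higher and 3 lower, where 16.7% and 17.4% of all genes were called. Without 1 library 0 to 42 were higher, with 0 without WT control D4 or either WT miR-331 library and 42 without Y537S miR-331 clone 2. SDHC, a membrane subunit of complex II, went from 151 and 154 to 246 and 234 CPM in Y537S cells and from 188 and 188 to 205 and 204 CPM in WT cells, a response difference of 0.54. The 2 lower members, both subunits of complex I, were NDUFC2 (27.1 and 25.7 to 13.9 and 14.3 CPM in Y537S cells; −1.14) and NDUFA5 (72.9 and 66.4 to 33.4 and 33.8 CPM; −0.72). Of 34 glycolysis and hypoxia genes, 7 were higher (18 with the block, and 0 without WT control D4 or WT miR-331 D1), at a median of 0.36. Those 7 hold enzymes of glycolysis, among them TPI1 (0.70), GPI (0.61) and PGAM1 (0.52). TPI1 had 139 and 127 CPM in Y537S control and 221 and 214 CPM in Y537S miR-331 libraries, and all 4 WT values lay between 113 and 121 CPM.

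Other lists on this side were smaller, and their shares are to be read against 3.47% of all genes, or 16.7% with the block. Proteasome subunits had 8 of 35 higher (22.9%, 24 genes with the block), with PSMB3, PSMD2 and PSMD13 at 0.57, 0.55 and 0.57. Lysosome and autophagy genes had 8 of 45 higher (17.8%, 21 genes with the block), among them GABARAP (0.69), which marks autophagosomes, PSAP (0.56), a precursor of lysosomal activators, and GLA (0.82). Iron, zinc and redox genes had 7 of 25 higher (28%, 12 genes with the block), with ferritin light chain FTL at 0.62 and the pentose phosphate enzyme TALDO1 at 0.55. Heat shock genes had 4 of 24 higher (16.7%, 13 genes with the block), with DNAJB1 at 0.45 and HSP90AB1 at 0.38. After the GC correction, when 345 of all 15666 genes were higher, the higher calls were 5 for the proteasome, 3 for the lysosome, 3 for redox genes and 0 for heat shock genes. Without 1 library they ran from 0 to 11, 1 to 9, 0 to 8 and 0 to 5 in that order, with the highest count in each list without Y537S miR-331 clone 2 and 0 to 2 without WT control D4 or either WT miR-331 library.

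Cholesterol synthesis genes had 5 of 24 higher (20.8%, against 3.47% of all genes), at a median of 0.19. The 2 lower genes were 8.33%, near the 6.47% of all genes. With the block 12 were higher and 5 lower, where 16.7% and 17.4% of all genes were called. After the GC correction 3 were higher and the lower calls were lost, and without 1 library 1 to 7 were higher and 0 to 4 lower, with 1 and 0 without WT control D4 or either WT miR-331 library. Over all 15666 genes the GC correction left 345 higher and 868 lower calls. DHCR7, which catalyses a last step of the pathway, had 227 and 273 CPM in WT control, 247 and 279.9 in WT miR-331, 221 and 238 in Y537S control and 393 and 379.7 CPM in Y537S miR-331 libraries. The first 3 groups overlapped and the last lay above them, a response difference of 0.68 (SE 0.14, Benjamini-Hochberg adjusted p = 0.026 by edgeR's quasi-likelihood test). The lower members were STARD4 (−1.02), a cholesterol carrier, and SC5D (−0.53), named after its values were seen.

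**Figure D4:**
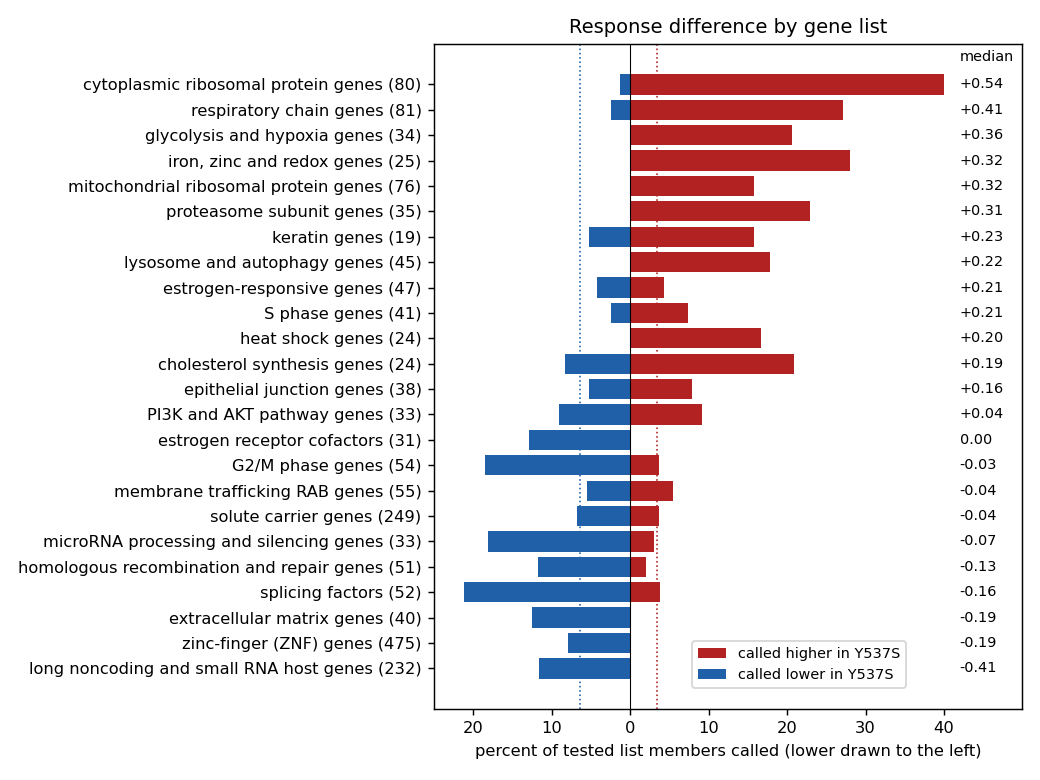
Percent of tested members called higher (red, to the right) and lower (blue, to the left) in Y537S cells for the gene lists with at least 4 called members, with the number tested in brackets and the median response difference at the right; dotted lines mark the 3.47% and 6.47% of all genes. Cytoplasmic ribosomal protein genes reach 40% on the right, and splicing factors extend furthest to the left.

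Proliferation genes were divided. Of 54 G2/M phase genes, 10 were lower (18.5%, against 6.47% of all genes) and 2 higher, at a median of −0.03. With the block 14 were lower and 12 higher, where 17.4% and 16.7% of all genes were called. The median was 0.03 after the GC correction, when 2 were called lower, and without 1 library 0 to 10 were lower, with 0 without WT control D4 or WT miR-331 D1. Over all 15666 genes the GC correction left 868 lower calls. CENPE, a kinetochore motor (chr4:104026506-104119602, minus strand), had 49.1 and 47.4 CPM in WT control, 29.1 and 27.6 in WT miR-331, 160 and 169 in Y537S control and 31.5 and 45.6 CPM in Y537S miR-331 libraries. The Y537S control pair was far above WT and the Y537S miR-331 pair near it, a response difference of −1.33 (SE 0.21, Benjamini-Hochberg adjusted p = 0.0088 by edgeR's quasi-likelihood test). SMC4, a condensin subunit, had −0.71 and MKI67, named after its values were seen, −0.67. The 2 higher members were HN1 (0.50) and BIRC5 (0.59), the latter also outside the naming rule. CDK1, chosen after its values were seen, had 321 and 301.3 CPM in Y537S control and 224 and 234 CPM in Y537S miR-331 libraries, and a response difference of −0.27 (adjusted p = 0.16 by the same edgeR test, and 0.01 with the block).

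The next 2 lists are to be read against 3.47% of all genes higher and 6.47% lower, or 16.7% and 17.4% with the block. Of 41 S phase genes, 3 were higher (7.32%) and 1 lower (2.44%), at a median of 0.21. With the block 16 were higher and 4 lower. MCM2 and MCM6, subunits of the replicative helicase, had 0.53 and 0.49. MCM2 was at 193 and 196 CPM in Y537S control and 340 and 334 CPM in Y537S miR-331 libraries, and at 70.6 and 79.8 against 90.5 and 89.6 CPM in WT cells. The lower member was CASP8AP2 (−0.71). Of 51 homologous recombination and repair genes, 6 were lower and 1 higher (14 and 9 with the block, and no lower call without WT control D4), at a median of −0.13. The shares of this list were 11.8% lower and 1.96% higher. BRCA2, a mediator of homologous recombination, fell from 54.2 and 48.9 to 17.5 and 19 CPM in Y537S cells. In WT cells it had 15.2 and 14.3 against 10.4 and 12.4 CPM, and its response difference was −1.12. ATM had −0.86 and XRCC2 −1.37, and the higher member was XRCC6 (0.52), named after its values were seen.

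Of 47 estrogen-responsive genes, 2 were higher and 2 lower, 4.26% in each direction against 3.47% and 6.47% of all genes, at a median of 0.21. With the block 15 were higher and 4 lower, where 16.7% and 17.4% of all genes were called. FKBP4, a co-chaperone of steroid receptors, had 993 and 951 CPM in Y537S control and 1502 and 1309.7 CPM in Y537S miR-331 libraries, with all 4 WT values between 459 and 509 CPM, a response difference of 0.55. XBP1 had 0.44 and MYBL1 −1.06. PGR and GREB1, classical ER target genes named after their values were seen, had −0.21 (Benjamini-Hochberg adjusted p = 0.44 by edgeR's quasi-likelihood test) and −0.15 (adjusted p = 0.76 by the same edgeR test). Of 31 estrogen receptor cofactors, 4 were lower (12.9%, against 6.47% of all genes) and 0 higher. With the block 7 were lower and 4 higher. DDX17 had −0.74, the methyltransferase KMT2D −0.91, LCOR −0.80 and KMT2C, outside the naming rule, −0.71.

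Of 33 genes of miRNA processing and silencing, 6 were lower and 1 higher (10 and 5 with the block, and no lower call without WT control D4), at a median of −0.07. DCP2, the decapping enzyme, had 600.1 and 578 CPM in WT control, 444 and 480 in WT miR-331, 443 and 434 in Y537S control and 200.3 and 220.4 CPM in Y537S miR-331 libraries. It fell in both genotypes and further in the mutant, a response difference of −0.71. The deadenylase subunit PAN2 had −0.84 and the GW182 protein TNRC6A −0.47. DICER1 (−0.46), XRN1 (−0.56) and the higher member RAN (0.39) were named after their values were seen. The lower calls were 18.2% of the list, against 6.47% of all genes. The 1 higher call was 3.03%, near the 3.47% of all genes. With the block 17.4% of all genes were lower and 16.7% higher.

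Extracellular matrix genes had 5 of 40 lower (11 with the block, and 2 to 5 without 1 library), at a median of −0.19. LAMA5, the laminin alpha-5 chain (chr20:60883011-60942368, minus strand), had 499.9 and 497 CPM in WT control, 802 and 738 in WT miR-331, 521 and 391.8 in Y537S control and 291 and 256 CPM in Y537S miR-331 libraries. It was higher in miR-331 than in control libraries of WT cells and lower in those of Y537S cells, a response difference of −1.37 (SE 0.18, Benjamini-Hochberg adjusted p = 0.0038 by edgeR's quasi-likelihood test). LAMA3 had −0.73, and COL16A1 (−2.29) and LTBP4 (−0.72) were named after their values were seen. The lower calls were 12.5% of the matrix genes, against 6.47% of all genes. With the block 17.4% of all genes were lower. Zinc-finger ZNF genes, mostly transcription factors, had 38 of 475 lower (128 with the block, and 9 to 70 without 1 library), 8% against 6.47% of all genes, at a median of −0.19. ZNF493 went from 13.8 and 17.5 to 1.77 and 2.06 CPM in Y537S cells beside 27 and 21.4 against 18.3 and 18.1 CPM in WT cells.

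The counts of the next 3 lists are to be read against 3.47% of all genes higher and 6.47% lower, or 16.7% and 17.4% with the block. Keratins had 3 of 19 higher (15.8%) and 1 lower (5.26%), and 6 and 1 with the block. KRT18 (0.61) and KRT8 (0.55), the luminal pair, belong to the 12 luminal markers, whose sum was 12151 and 12222 CPM in Y537S control and 16751 and 16990 CPM in Y537S miR-331 libraries. KRT15 was the lower keratin (−1.76). NF-kB and cytokine genes had 3 of 26 lower (11.5%, 8 genes with the block), TNFAIP2, IKBKB and NFKBIZ at −1.17, −0.64 and −1.43. PI3K and AKT pathway genes had 3 lower and 3 higher of 33 (9.09% each), and 6 and 7 with the block. RPTOR, the scaffold of mTORC1, had 0.64 and the lipid kinase PIK3C2A −0.62. By edgeR, 0 of 49 interferon-stimulated, 24 p53 target, 24 immediate early, 16 ERBB receptor and ligand, 32 TGF-beta and BMP, 23 Notch and 13 mesenchymal genes were called. At an unadjusted p under 0.05 these lists had 4, 5, 0, 2, 6, 2 and 1 such members in the same order, with DESeq2 3, 1, 0, 2, 3, 1 and 1, and with the block 12, 8, 3, 4, 9, 5 and 2. Of all 15666 genes tested, 4320 passed at the unadjusted p, 2401 with DESeq2 and 5345 (34.1%) with the block.

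The counts of the remaining lists are to be read against 3.47% of all genes higher and 6.47% lower, or 16.7% and 17.4% with the block. Solute carriers had 9 higher (3.61%) and 17 lower (6.83%) of 249, near those shares, and 46 and 41 with the block. RAB genes of membrane trafficking had 3 higher and 3 lower of 55 (5.45% each). Epithelial junction genes had 3 higher (7.89%) and 2 lower (5.26%) of 38, with CTNNB1, which encodes beta-catenin, at 0.42 and CLDN12 at −0.78. BCL2 family genes had 2 higher (11.1%) and 1 lower (5.56%) of 18, BCL2L1 (0.43), BCL2L13 (0.49) and BCL2L2 (−0.64). Kinesins had 2 lower of 33 (6.06%), KIF18B and KIF20B (both −0.84). Nuclear receptors had 2 lower of 34 (5.88%), NR2C2 (−0.72) and NR2C1 (−0.74). Among G1 cyclins, CDKs and their inhibitors, 1 of 28 was higher, CDK4 (0.59), which had 171 and 167 CPM in Y537S control and 317 and 286 CPM in Y537S miR-331 libraries. Higher members also numbered 2 of 30 ATF4 targets (6.67%, WARS and SHMT2) and 2 of 32 Wnt pathway genes (6.25%, CTNNB1 and FZD1). Integrin and adhesion genes had 2 of 30 higher (6.67%, ITGA3 and PARVA) and fatty acid synthesis genes 1 of 22 (4.55%, ELOVL1). Unfolded protein response genes had 1 of 25 (4%) and luminal transcription factors 1 of 23 (4.35%), both XBP1. Histone genes had 1 of 48 (2.08%, HIST1H2BD). Of 24 RAS and ERK pathway genes, RASA2 was lower (−1.04).

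Genes with opposite responses made up a small group. All 38 rose in WT and fell in Y537S cells, and those described were chosen after their values were seen. KIFC2, a kinesin, had 133 and 137 CPM in WT control, 229.7 and 207 in WT miR-331, 108 and 107 in Y537S control and 25.2 and 24 CPM in Y537S miR-331 libraries. The genotypes were close in the control and far apart in the miR-331 libraries, and the response difference was −2.82 (SE 0.11, Benjamini-Hochberg adjusted p = 1.7e-05 by edgeR's quasi-likelihood test). ARHGAP33 had −3.07, LENG8 −2.12, PKD1, which encodes polycystin-1, −1.66 and the deacetylase HDAC7 −0.78.

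Of the 31 genes that passed in WT cells and not in Y537S cells, 27 rose and 4 fell in WT cells. SDAD1 (chr4:76862103-76912115, minus strand), named after its values were seen, had 53.9 and 56.7 CPM in WT control, 308 and 291 in WT miR-331, 272 and 262 in Y537S control and 252 and 254 CPM in Y537S miR-331 libraries. Only the WT control pair was low, and the WT miR-331 pair was near the level of the mutant. The response difference was −2.52 (SE 0.10, Benjamini-Hochberg adjusted p = 1.7e-05 by edgeR's quasi-likelihood test). Over the 22 libraries other than Y537S miR-331, SDAD1 ranged from 55.7 to 352 CPM, with the WT control libraries at the bottom. PIEZO1, a mechanosensitive channel, had 393 and 395 CPM in WT control and 546 and 528 CPM in WT miR-331 libraries, and 303 and 284 against 307 and 279 CPM in Y537S cells, a response difference of −0.45. The 4 that fell in WT cells were RAB3D, TMEM97 and RRP36, with response differences of 0.47, 0.46 and 0.40, and TAP2, all outside the naming rule. TAP2 had 1.25 and 1.076 CPM in WT control libraries and 0 counts in both WT miR-331 libraries, and no fold is given.

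The sequence of the transcripts differed between the directions. Median GC content was 53.9% for the higher genes, 48.4% for the lower genes and 48.9% for all genes tested. Median transcript length was 2011 bases for higher, 3702 for lower and 3121 for all genes, and median 3′UTR length 576, 1105 and 1289.5 bases. Genes called lower had a median of 12 exons, against 8 for higher and for all genes. Among the 272 genes with over 40 exons, 59 were lower and 2 higher, at a median response difference of −0.30. Higher genes also had higher levels, with a median of 7.09 log2 CPM against 4.05 for lower and 4.30 for all genes, and levels bear on which small differences pass the test.

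Both responses rose with GC content, and by unlike amounts. From the lowest to the highest of 10 equal groups of genes by GC content, the median log2 fold change went from −0.54 to 0.54 in Y537S cells and from −0.19 to 0.50 in WT cells. The median response difference was −0.36 in the lowest group, 0.17 in the seventh and 0.03 in the highest. After the trend with GC content was taken out of each library, 345 genes were called higher and 868 lower.

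**Figure D5:**
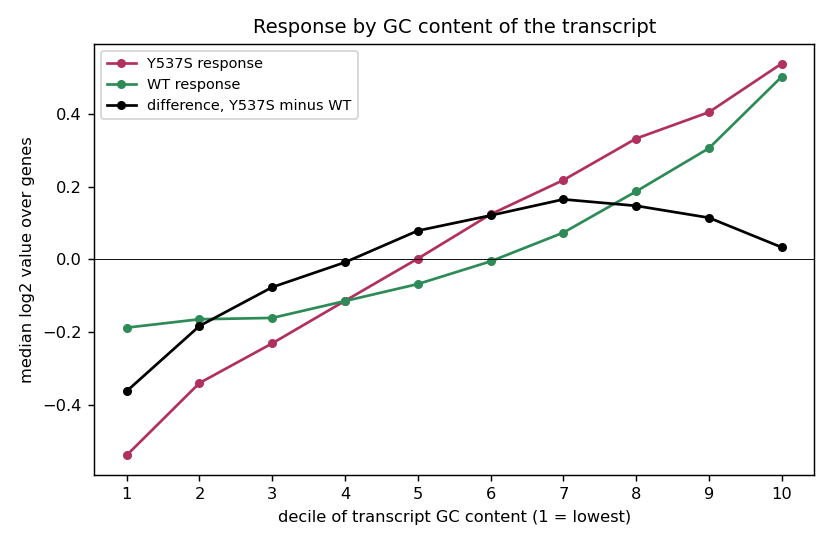
Median log2 fold change after the mimic in Y537S cells (red) and WT cells (green), and median response difference (black), over genes grouped into deciles of transcript GC content from lowest (1) to highest (10). The black line rises from −0.36 to 0.17 at decile 7 and returns to 0.03 at decile 10.

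A seed match for miR-331-3p, the 7 bases CCAGGGG on the sense strand of the 3′UTR, was held by 2113 of 13674 genes tested that had a 3′UTR (15.5%). It was held by 102 of 801 lower genes (12.7%) and by 85 higher genes (15.8% of those with a 3′UTR). With an A after the 7 bases, the shares were 3.995% of lower, 4.47% of higher and 4.78% of all genes. Genes without a match had a median response difference of −0.01, the 1661 genes with 1 match 0.06 and the 452 genes with 2 or more 0.11. The medians of the responses themselves also rose with the number of matches, to 0.21 in Y537S and 0.12 in WT cells at 2 or more. The shorter 3′UTRs of the higher genes and the GC-rich letters of the match bear on these shares, and their part was not tested.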

How the data were processed

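The authors prepared poly-A RNA-seq libraries, used HISAT2 for alignment to the hg19 genome build and featureCounts (Subread) with UCSC Known Genes for counting, and deposited unnormalized counts. Versions of the aligner and counter, the strand setting and the handling of multi-mapping reads are not given in the sources used here, so overlapping and duplicated genes are uncertain. Clone names in the WT table could not be joined to the clone numbers of the labels, so these columns were assigned by group; the digits of the mutation are transposed in some labels, and Y537S was used.

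The 8 libraries of 4 groups were fitted together with edgeR 4.0.16 in R 4.3.3 (TMM, filterByExpr, quasi-likelihood F test), without a clone term. Genes were called at a Benjamini-Hochberg adjusted p under 0.05. The standard error is the size of the log2 value over the square root of F. A difference of 2 values against 2 in a single gene cannot go below 0.333 in an exact two-sided permutation test, so tests across all genes were used. CPM values are given for TMM-scaled libraries, and those set against the other 22 libraries were scaled over all 24. Alternatives were DESeq2 1.42.0, DESeq2-type size factors, no filter, the clone as a block, all 24 libraries, a GC correction (lowess, span 0.3, as an offset), the block with the GC correction, and each of the 8 libraries left out. Libraries of 1 clone come from the same clonal cells, and on that ground the clone pairs them. Across genes, the difference between clones in treated and in control libraries had a correlation of 0.472 in Y537S and 0.153 in WT cells. Common dispersion was 0.0203, and 0.00360 with the block. The clones are taken as replicates, as in the study, and p-values of fits without the block measure the spread between clones. With the block, p-values measure how far the responses of the 2 clones of a genotype differed. They then leave out the spread in level between clones. The scripts were tested on simulated data.

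Named genes were the 12 largest differences in each direction among called genes averaging 2 log2 CPM or more whose Y537S responses both lay on 1 side of both WT responses (symbols starting LOC, LINC, MIR or SNOR left out), ESR1, and the 3 members with the smallest p of each list with a called gene; others are marked as named after their values were seen, and a few genes under the rule are not reported here. Members and the 50 lists were chosen with earlier results of these data known. Annotation was GENCODE v44 on GRCh37, which matched 22494 genes by symbol and 1363 by an older symbol and left 2507 unmatched; 18756 had a 3′UTR. Python 3.11.15 with pandas 2.3.3 and numpy 2.4.6 handled the tables.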

Additional observations from a re-analysis of the deposited data

Results flagged for a closer look

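The responses of the 2 genotypes differed, by the test of the difference itself, for 1557 genes, and among them for each of the 24 leading genes. The response differences of the leading lower genes were −5.05 for COL7A1, −4.43 for GOLGA8B, −4.42 for GPT, −4.35 for SEC31B, −4.07 for SLC16A8, −4.03 for HERC2P3, −4.02 for HSF4, −3.92 for MAMDC4, −3.90 for SCART1, −3.82 for PABPC1L, −3.76 for PAQR6 and −3.64 for HERC2P2. Those of 10 leading higher genes were 0.99 for GLUD2, 0.93 for PLCD1, 0.84 for GALK1, 0.82 for GLA, 0.81 for UBL7, 0.81 for RPS14, 0.80 for PRADC1, 0.79 for SLC41A3, 0.78 for LAGE3 and 0.78 for TRUB2. All of them rest on the 2 Y537S miR-331 libraries, which also had the lowest MALAT1, NEAT1 and snoRNA levels of the 24, and the part of this in the differences cannot be told apart from the treatment.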

How the results depend on the processing

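The number of calls moved with the settings. It was 2401 with DESeq2 (1188 higher, 49.5% of calls), 5345 with the clone as a replicate block (2617 higher, 2728 lower, 49% higher), 2623 with all 24 libraries (1154 higher) and 4816 when block and GC correction were joined (2450 higher, 2366 lower, 50.9% higher). The GC correction alone left 345 higher calls, and DESeq2-type size factors and no filter on low counts kept the total within 1.5 times. Higher calls were 34.9% of all calls in the unblocked fit. Without 1 library there were 283 to 2378 calls, 7 to 942 higher, 276 to 1436 lower and 2.47% to 39.6% higher. Every library moved the total by over 1.5 times: it was 505 without WT control D1, 283 without WT control D4, 315 without WT miR-331 D1, 380 without WT miR-331 D4, 893 and 776 without Y537S control clones 1 and 2, and 1019 and 2378 without Y537S miR-331 clones 1 and 2. A group then held 1 library, which was assumed to vary like the others. With the block, 5131 genes responded in WT and 9307 in Y537S cells. Under a match of 8 bases the shares were 4.47% of higher and 3.995% of lower genes. The 24 leading genes kept their direction in every alternative, and higher ones lost the call in 5 of 84 values outside the leave-one-out fits. ESR1 was not called anywhere and changed sign to −0.0060 with no filter, −0.068 with the GC correction and −0.074 with that correction and the replicate block, and ran from −0.36 to 0.33 without 1 library. The block changed no direction among the leading genes. With 2 clones per genotype, genotype and clone cannot be told apart.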
